A study of Mus musculus with 6 samples.

Results

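Chemokine ligands are small secreted proteins that attract leukocytes. They were taken from the count table as every protein-coding row whose gene name begins with Ccl, Cxcl, Cx3cl or Xcl and a number. This gave 44 rows of 54532, for 38 gene symbols, because 5 symbols have more than 1 row and 7 rows lie on unplaced scaffolds. RNA was sequenced from whole livers of male mice. The 3 libraries labelled wild type (WT) came from littermates with the genotype label control. The other 3 are labelled Trem2 KO and come from mice lacking both copies of Trem2 (Trem2-/-), a lipid-sensing receptor of macrophages. Both groups were fed high-fat chow, which induces fatty liver, from 8 weeks of age for 8 weeks, and no group on another diet was analysed. The labels describe neither the deleted allele nor whether each library came from a separate mouse, so p-values may reflect no more than technical spread among samples. The WT-labelled libraries carry the replicate numbers 1, 2 and 3, and the KO-labelled libraries 4, 5 and 6. Values below are given in that order.

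Chemokines are named for the spacing of their first cysteines (CC, CXC, CX3C and XC) and act through G protein-coupled receptors. Heparan sulfate chains on cell surfaces hold many of them in place, so that a gradient forms, and atypical receptors take them up without classical signalling. In liver, Kupffer cells, stellate cells, sinusoidal endothelium and hepatocytes can all make chemokines. The CCR2 ligand Ccl2 is best known for drawing blood monocytes into inflamed liver, the CXCR2 ligands Cxcl1 and Cxcl2 for drawing neutrophils, and Cxcl16 for holding CXCR6-bearing lymphocytes in the sinusoids.

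Totals lay between 11591021 and 20399361 counts per library. Trem2, the deleted gene (chromosome 17, 48346401 to 48354147), had counts of 7, 26 and 26 in the WT-labelled libraries and 9, 6 and 5 in the KO-labelled libraries. The groups overlapped, with WT replicate 1 below KO replicate 4, and the fitted log2 fold change of KO over WT was −1.30 (SE 0.68; edgeR quasi-likelihood test, Benjamini-Hochberg adjusted p = 0.633). Trem2 therefore does not separate the labels, and counts over the whole gene cannot show which part is deleted. The share of counts from mitochondrially encoded genes was 8.16 to 12.7% in the WT-labelled libraries, and 28.0, 9.08 and 19.8% in the KO-labelled ones. Gene counts were least alike between WT replicate 1 and KO replicate 4 (chi-square per degree of freedom 348) and most alike between KO replicates 4 and 6 (45.6). KO replicate 5 was closest to WT replicate 3 (60.7), and WT replicate 2 to KO replicate 6 (81.7), so the libraries did not group by label. KO replicate 5 stood apart in transcripts of fat cells: it held 122 of 128 counts of Plin1, 125 of 128 of Adipoq, all 64 of Lep and 32 of 33 of Retn. Where stated, results that rest on this library are also given without it. All 8 hepatocyte markers were tested, with a summed level of 73492 to 101416 CPM (read counts divided by TMM-adjusted library size) in the WT-labelled and 75082 to 78108 in the KO-labelled libraries.

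Of the 44 ligand rows, 16 had enough reads to be tested, 18 had at least 1 count in some library but too few for a test, and 10 had no count in any library. By symbol, 32 ligands had at least 1 count and 6 had none. The test required at least 0.584 CPM, before TMM scaling, in 3 libraries. Ccl2 and a scaffold copy of Ccl21a were just inside it, each reaching that level in exactly 3 libraries. For Ccl2 these were the 3 KO-labelled ones and no WT-labelled one, so that Ccl2 was tested only because it was high in that group. The scaffold copy reached it in 2 WT-labelled libraries and 1 KO-labelled library, while Cxcl13 reached it in 2 and Ccl3 and Ccl4 in 1. The ligands without a count were Ccl1, a CCR8 ligand; Ccl19 and Ccl21b, which guide dendritic cells and naive T cells through CCR7; Ccl26, an eotaxin; Cxcl3, a neutrophil attractant; and Cxcl15, known from lung. Ccl19-ps3, a Ccl19 copy annotated as a pseudogene and so not a member, had 0, 12 and 13 against 20, 11 and 31 counts. Its log2 value was 1.59 (edgeR adjusted p = 0.660), and how reads were shared between it and Ccl19 was not tested. A count of 0 over 99763482 counts allows up to 3 counts, or 0.0301 CPM, which covers counting error only. In single libraries the same floor lay between 0.139 and 0.272 CPM. The rows that had counts but were not tested summed to between 1 and 63 counts over the 6 libraries, with a median of 12.5.

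**Figure D1:**
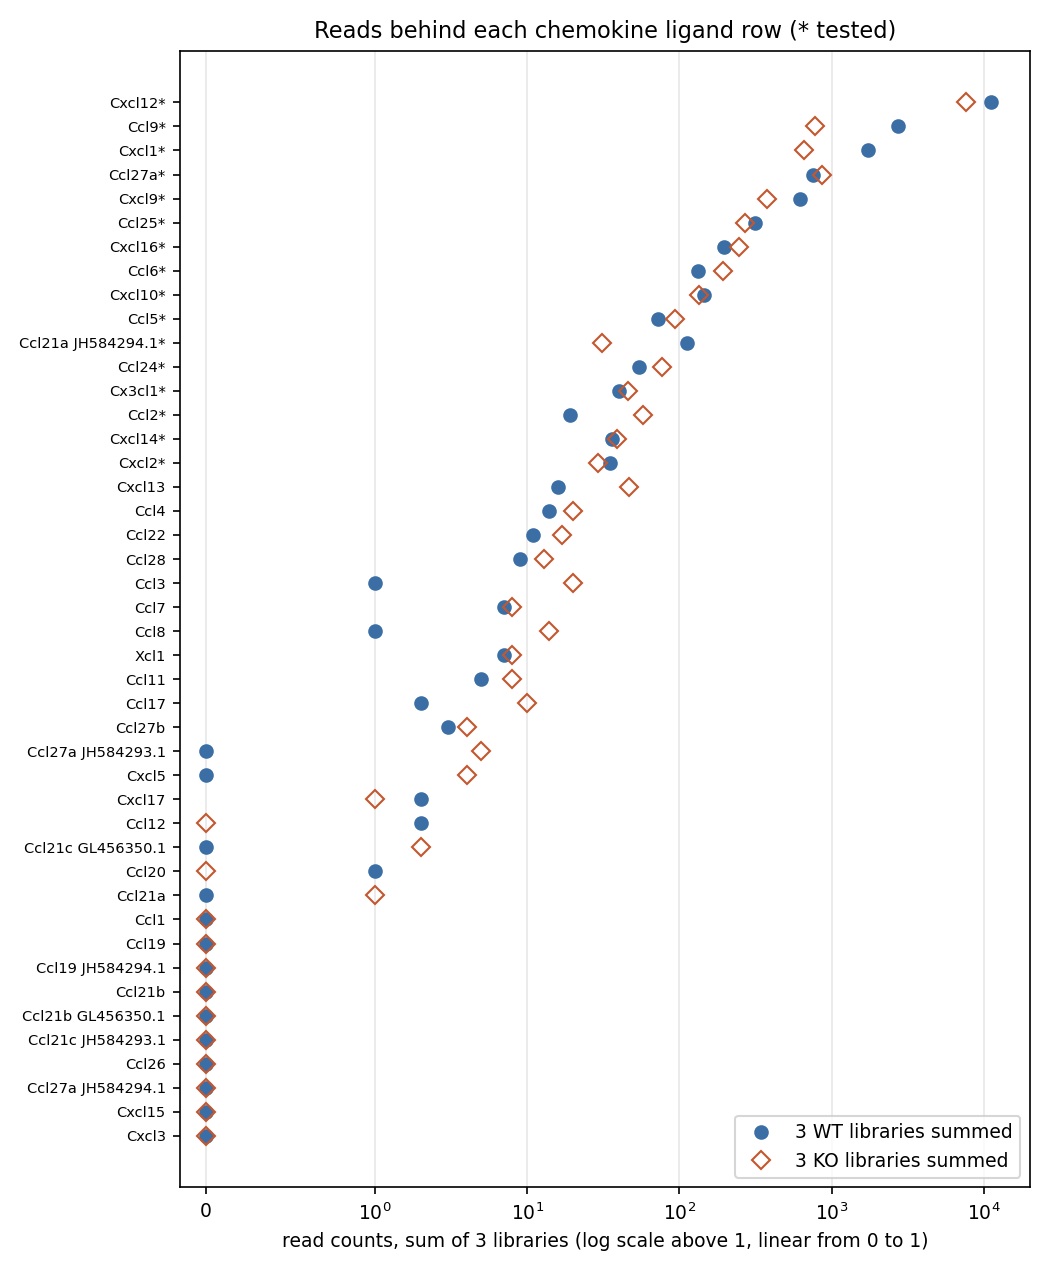
Read counts summed over the 3 WT-labelled (filled circles) and the 3 KO-labelled libraries (open diamonds) for each of the 44 ligand rows, on an axis that is logarithmic above 1 and linear from 0 to 1; rows with an asterisk were tested. Cxcl12 has 11105 and 7625 counts, and the lowest 10 rows have none in either group.

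Levels of different genes can be compared only per length, for which the authors' FPKM values were used (mean ± SD, n = 3 libraries a group). Cxcl12 was highest, at 25.8 ± 3.86 FPKM in the WT-labelled and 17.3 ± 7.73 in the KO-labelled libraries. Cxcl1 was next, at 17.1 ± 7.26 and 7.84 ± 3.05, followed by Ccl9, at 16.3 ± 9.66 and 4.87 ± 1.52. Cxcl12 was the highest of these 3 in every WT-labelled library (27.2, 21.5 and 28.9 FPKM), although the ranges of the 3 overlapped across libraries. Cxcl1 (17.6, 9.65 and 24.1) and Ccl9 (17.2, 6.25 and 25.5) changed order between WT-labelled libraries. Ccl27a had 6.20 ± 3.62 and 8.18 ± 3.19 FPKM, so that in the KO-labelled libraries it lay between Cxcl1 and Cxcl12, with ranges overlapping those of Cxcl1. The scaffold copy of Ccl21a, listed at 0 in WT replicate 1, ranged up to 10.9 FPKM in the WT-labelled and 3.12 in the KO-labelled libraries. Cxcl9 followed at 3.80 ± 1.62 and 2.81 ± 1.14. Below these, Ccl5, Ccl6, Cxcl16, Cxcl10 and Ccl24 had means over all libraries between 1.04 and 1.77 FPKM, close enough that neighbours in this order overlapped. Ccl25, Ccl2, Cxcl14, Cxcl2 and Cx3cl1 lay below 1 FPKM, the last at 0.222.

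Cxcl12 also made up most of the ligand reads. It took 64.7, 64.3 and 57.2% of all ligand counts in the WT-labelled and 47.9, 75.4 and 56.9% in the KO-labelled libraries. All ligands together had 332, 276 and 416 CPM in the WT-labelled and 191, 290 and 219 CPM in the KO-labelled libraries, groups that overlapped at WT replicate 2 and KO replicate 5. Without Cxcl12 the sums were 117, 98.5 and 178 CPM against 99.4, 71.6 and 94.4 CPM, and KO replicate 4 stood just above WT replicate 2.

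No ligand passed the adjusted threshold in the comparison of KO-labelled with WT-labelled libraries. The count was 0 of 16 by edgeR, where 2 of 13693 genes (0.0146%) were called over the whole table. limma-voom called no ligand either (0.0073% of all genes), DESeq2 called 1, Ccl9 (1.29%), and limma-voom with sample quality weights called 5 (29.7%). At an unadjusted p under 0.05, edgeR had 3 of 16 ligands (18.8%), against 8.58% of all genes tested: Ccl2 fitted higher (5.37% of all genes), and Ccl9 and Cxcl1 fitted lower (3.21%). Because Ccl2 was tested only through the KO-labelled libraries, its direction and its place in these counts support nothing about the ligands. The other 15 tested ligands had 2 at an unadjusted p under 0.05, and 8 of them were fitted higher. Of the 16, 9 were fitted higher (56.2%, against 49.1% of all genes). The median log2 fold change was 0.09, or 0.04 without Ccl2, beside −0.01 over all genes. Ccl2 was the 1 tested ligand whose groups did not overlap (6.25%, against 13.9% of all genes), with the KO-labelled values above (8.12% of all genes); no tested ligand had all KO-labelled values below (5.73%). Among the other 15 tested ligands no groups were apart. Libraries of the same group varied widely, with a biological coefficient of variation of 34.7%. With WT replicate 1 and KO replicate 4 left out, a choice made after seeing the data, 0 ligands passed the adjusted threshold. An unadjusted p under 0.05 was reached by 5, against 3.75% of all genes: Ccl9, Cxcl1, Ccl6, the scaffold copy of Ccl21a and Ccl2. Because Ccl2 is among them and the choice followed the data, this count supports nothing about the ligands. Without KO replicate 5 no ligand passed either, and Cxcl12, Ccl9 and Ccl2 had an unadjusted p under 0.05, against 19% of all genes.

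**Figure D2:**
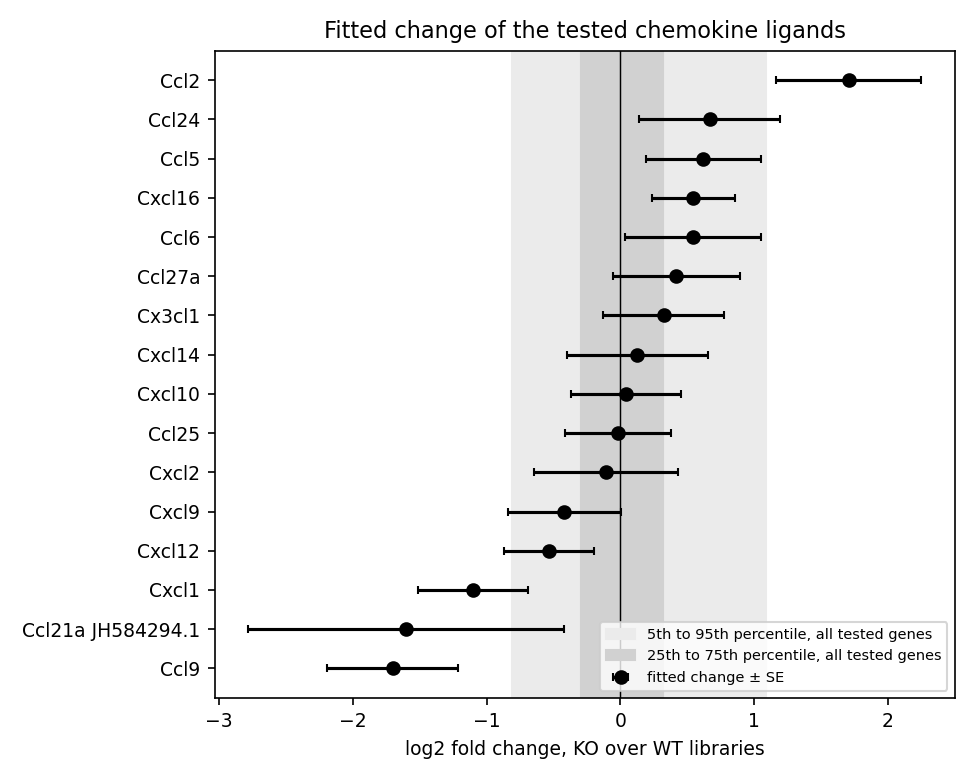
Fitted log2 fold change, KO over WT libraries, of each of the 16 tested ligands (points) with its SE (bars), beside the 5th to 95th and 25th to 75th percentiles of all tested genes (light and dark bands). Ccl2 at 1.71 lies above the light band, and Cxcl1, the scaffold copy of Ccl21a and Ccl9 lie below it, at −1.10, −1.60 and −1.70.

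Among the monocyte attractants, Ccl2 was scarce and fitted higher. This CCR2 ligand (ENSMUSG00000035385; chromosome 11, 82035571 to 82037453) had 0.312, 0.192 and 0.535 CPM in the WT-labelled and 0.817, 1.34 and 1.31 CPM in the KO-labelled libraries. Every KO-labelled value lay above every WT-labelled value, but the reads behind them were 5, 3 and 11 against 9, 29 and 20. The means were 0.346 ± 0.174 and 1.158 ± 0.295 CPM (SD, n = 3 libraries a group), a fitted 3.26-fold difference (log2 1.71, SE 0.54; edgeR adjusted p = 0.445). Without KO replicate 5 the log2 value was 1.58. Ccl2 entered the test only through the KO-labelled libraries, so these values are a description and support nothing about the ligands. The other monocyte attractants were too scarce to test. Ccl7, which also binds CCR2, had counts of 0, 5 and 2 against 1, 5 and 2, so neither group stood higher. Ccl8, which in mouse also acts through CCR8, had 0, 0 and 1 against 6, 8 and 0 counts. The rate ratio of Ccl8 was 15.3 (95% interval 2.33 to 646, counting error only), while KO replicate 6 had no count. Ccl12, the mouse CCR2 ligand next to Ccl8 on the chromosome, had 2 counts, both in WT replicate 3.

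Macrophage markers are given beside Ccl2. All 8 tested Kupffer cell markers of 9 were fitted higher, with summed levels of 84.9 to 122 CPM in the WT-labelled and 143 to 228 CPM in the KO-labelled libraries and a median log2 fold change of 0.80. None passed the adjusted threshold in edgeR, DESeq2 called Cd163, and limma-voom with quality weights called Cd163, Csf1r and Clec4f. Within the KO-labelled libraries the sums were 203, 143 and 228 CPM at mitochondrial shares of 28.0, 9.08 and 19.8%, lowest in the library with the lowest share. The markers with the smallest p were Csf1r, the receptor for colony-stimulating factor 1, at 0.88 (SE 0.22; edgeR adjusted p = 0.391), and Cd163, a haemoglobin scavenger receptor, at 1.35 (SE 0.33; edgeR adjusted p = 0.40). All 7 tested of 9 markers of monocytes and inflammatory macrophages were also fitted higher, from 17.9 to 35.3 CPM to 35.6 to 52.2 CPM, led by Fcgr1 at 1.05. The 2 members below the test went the other way in their counts: Ly6c2, the marker of classical monocytes, had 9, 10 and 10 against 0, 9 and 2, and Chil3 had 3, 0 and 2 against 0, 3 and 0. edgeR and DESeq2 called none of this list, and quality weights called Cd68 and Fcgr1. The part of these cells and of the mitochondrial share in the Ccl2 values was not tested, and in bulk tissue more cells of a type and more RNA per cell cannot be told apart.

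Among the inflammatory CC ligands Ccl3, Ccl4, Ccl5, Ccl6 and Ccl9, which attract monocytes, macrophages and activated T cells, Ccl9 had the lowest fitted value among all tested ligands. Ccl9, a CCR1 ligand made by macrophages and other myeloid cells (ENSMUSG00000019122; chromosome 11, 83572919 to 83578636), had 50.6, 19.2 and 78.4 CPM in the WT-labelled and 10.4, 20.1 and 14.8 CPM in the KO-labelled libraries. WT replicates 1 and 3 were high, while WT replicate 2 lay just below KO replicate 5. The counts behind these values ran from 115 to 1612. The fitted level was 3.25-fold lower in the KO-labelled libraries (log2 −1.70, SE 0.49; edgeR adjusted p = 0.408). DESeq2 gave −1.73 with an adjusted p of 0.0469, the 1 ligand it called where 1.29% of all genes were called. Leaving out 1 library at a time gave −2.10 (without WT replicate 2) to −1.23 (without WT replicate 3). Ccl9 thus was fitted lower in the same libraries in which the Kupffer cell markers were fitted higher, and the relation of the pair was not tested.

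The neighbours of Ccl9 did not share its direction. Ccl6, its closest relative among the tested genes and also a myeloid CCR1 ligand, had 4.30, 1.28 and 2.14 CPM against 2.72, 5.42 and 3.02 CPM. Its groups overlapped, with the highest value in KO replicate 5 (log2 0.54, SE 0.51; edgeR adjusted p = 0.733). Ccl5, made by T and NK cells among others, had 1.06, 1.15 and 1.80 CPM against 2.72, 1.44 and 2.10 CPM. Here only WT replicate 3 stood above a KO-labelled library (log2 0.62, SE 0.43; edgeR adjusted p = 0.677). T and NK cell markers did not move with Ccl5 as a group. Of 12 such markers 4 were tested, 2 fitted in each direction, and their summed levels overlapped at 4.23 to 7.23 and 3.06 to 5.98 CPM. Ccl3 and Ccl4, made by activated macrophages and lymphocytes, were below the test. Ccl3 had counts of 0, 0 and 1 against 11, 3 and 6, a rate ratio of 21.8 (95% interval 3.49 to 905, counting error only), and every KO-labelled library had more reads than any WT-labelled one. In an edgeR fit without the count filter its adjusted p was 0.294. Ccl4 had 5, 3 and 6 against 10, 7 and 3 counts, and overlapped.

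Neutrophil attractants that signal through CXCR2 differed greatly in level. Cxcl1 (ENSMUSG00000029380; chromosome 5, 90891241 to 90893115) had 31.8, 18.2 and 45.7 CPM in the WT-labelled and 18.6, 8.38 and 17.9 CPM in the KO-labelled libraries. WT replicates 1 and 3 were again the highest, and WT replicate 2 lay between KO replicates 6 and 4. The fitted level was 2.14-fold lower (log2 −1.10, SE 0.41; edgeR adjusted p = 0.526). Its unadjusted p was no longer under 0.05 without WT replicate 1, WT replicate 3 (−0.77) or KO replicate 5. Cxcl2, a close relative, had 0.872, 0.704 and 0.486 against 0.636, 0.371 and 0.919 CPM. Those groups overlapped throughout (log2 −0.11, SE 0.54; edgeR adjusted p = 0.953), and the sign changed to 0.59 when limma-voom weighted libraries by quality. Cxcl5 had 1 count in KO replicate 4 and 3 in KO replicate 6. Neutrophil markers were scarce in both groups, and their part in the Cxcl1 values was not tested. Ly6g had no count, Mpo had 1, and 3 of 9 were tested, 1 fitted higher and 2 lower. The list had summed levels of 5.40 to 10.3 and 4.12 to 8.47 CPM. The receptor Cxcr2 had counts of 14, 1 and 2 against 0, 3 and 3.

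Cxcl12, the CXCR4 and ACKR3 ligand that stromal and endothelial cells make constitutively, was the most abundant ligand (ENSMUSG00000061353; chromosome 6, 117168535 to 117181367). It had 215, 177 and 238 CPM in the WT-labelled and 91.3, 219 and 124 CPM in the KO-labelled libraries. KO replicates 4 and 6 lay below all WT-labelled libraries, and KO replicate 5 lay among them (log2 −0.53, SE 0.34; edgeR adjusted p = 0.666). Without KO replicate 5 the value was −0.96, with an unadjusted p under 0.05, and without KO replicate 4 it was −0.29. The libraries with low Cxcl12 were those with the highest mitochondrial share, 28.0 and 19.8%, against 9.08% in KO replicate 5, and the part of that share in the result was not tested. Markers of stellate cells and sinusoidal endothelium are given beside it. Of 8 stellate markers 6 were fitted higher, from 149 to 172 CPM to 174 to 429 CPM in sum, led by the collagens Col3a1 (2.28, SE 0.51; edgeR adjusted p = 0.370) and Col1a1 (2.38, SE 0.56; edgeR adjusted p = 0.383). All 9 endothelial markers were fitted higher, from 166 to 189 CPM to 228 to 309 CPM. Neither list had a call in edgeR, whereas DESeq2, and edgeR without the count filter, called Col3a1, Col1a1 and Des. Lrat and Dcn were at −0.03 and −0.01, and the stellate sum of KO replicate 6, 174 CPM, was close to that of WT replicate 2, 172 CPM. The endothelial sums of the KO-labelled libraries, 309, 228 and 296 CPM, were, like the Kupffer cell sums, lowest where the mitochondrial share was lowest. Unlike those, they were also largest where it was largest.

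**Figure D3:**
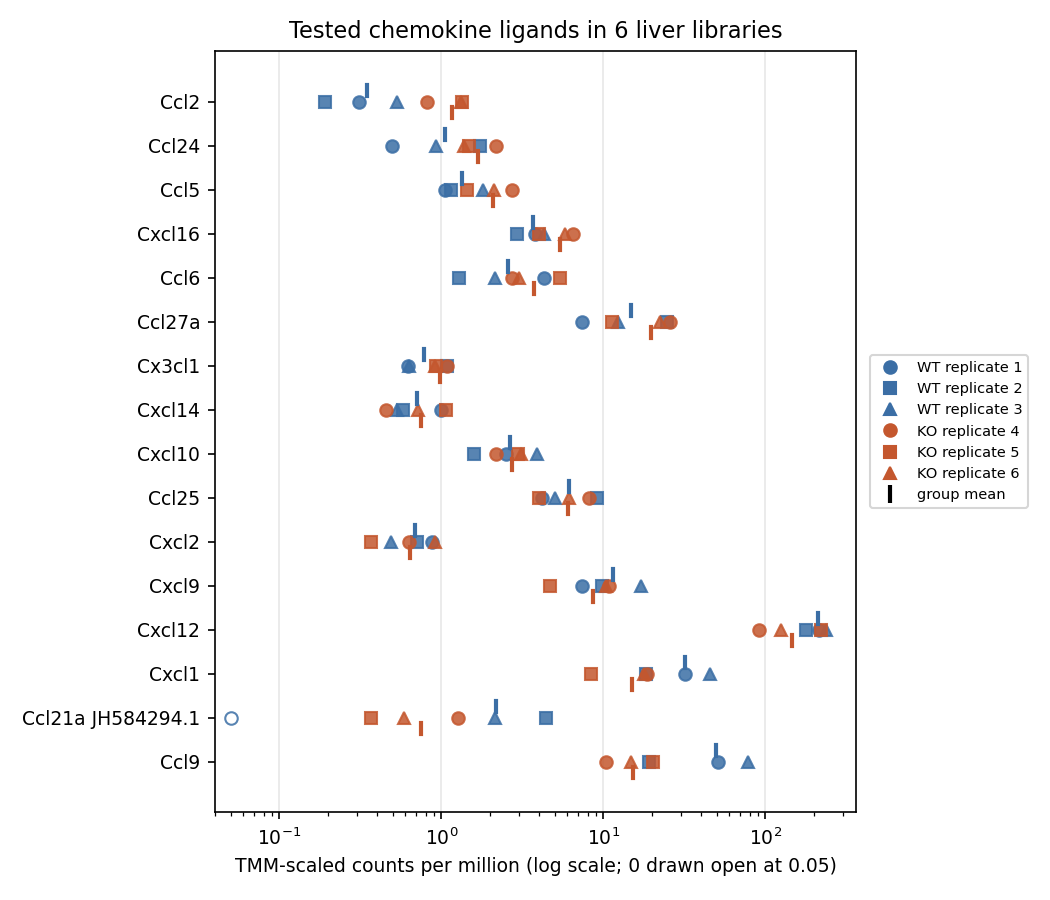
TMM-scaled CPM of the 16 tested ligands on a log axis, 1 symbol per library (WT-labelled blue, KO-labelled orange) with short bars for the group means; a value of 0 is drawn open at 0.05. Ccl2 at the top is the only row in which all orange symbols lie to the right of all blue ones, and in Ccl9 at the bottom WT replicate 2 lies among the orange symbols.

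The CXCR3 ligands, which interferon-gamma induces and which attract activated T cells, showed no common shift. Cxcl9 had 7.35, 9.86 and 17.1 against 10.9, 4.68 and 10.3 CPM (log2 −0.42, SE 0.42; edgeR adjusted p = 0.747). Its highest value was in WT replicate 3 and its lowest in KO replicate 5. Cxcl10 had 2.49, 1.60 and 3.89 against 2.18, 2.96 and 3.09 CPM, with a mean of 2.66 ± 1.15 and 2.74 ± 0.492 CPM (SD, n = 3; log2 0.04, SE 0.41; edgeR adjusted p = 0.974). Exons of Cxcl10 share 133 bases with Art3 on the opposite strand, and strand-specific counting is not stated. Cxcl11 is annotated in this table as a polymorphic pseudogene and so is not a member. It had 0.623, 10.6 and 2.48 against 16.1, 2.55 and 6.90 CPM, a more than 10-fold range within the WT-labelled libraries alone (log2 0.88, SE 0.96; edgeR adjusted p = 0.762). Transcripts of interferon-gamma itself, Ifng, had no count in any library.

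Both transmembrane ligands, which can be shed from the cell surface by ADAM proteases, were fitted higher, and neither passed. Cxcl16, the CXCR6 ligand, had 3.80, 2.95 and 4.33 against 6.45, 4.03 and 5.78 CPM. KO replicates 4 and 6 lay above all WT-labelled libraries and KO replicate 5 between WT replicates 1 and 3 (log2 0.55, SE 0.31; edgeR adjusted p = 0.647). Exons of Cxcl16 share 552 bases with Zmynd15 on the opposite strand. Cx3cl1, or fractalkine, had 0.623, 1.09 and 0.632 against 1.09, 0.926 and 0.919 CPM, with WT replicate 2 level with the KO-labelled libraries (log2 0.32, SE 0.45; edgeR adjusted p = 0.817). Its receptor Cx3cr1 is described with the receptors.

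Ligands known for guiding cells to epithelia and lymphoid tissue were mixed. Ccl27a, a CCR10 ligand best known from skin, had 7.42, 24.5 and 12.4 against 25.7, 11.3 and 22.4 CPM. WT replicate 2 was as high as KO replicates 4 and 6, and KO replicate 5 as low as WT replicate 3 (log2 0.42, SE 0.47; edgeR adjusted p = 0.770); without WT replicate 1 and KO replicate 4 the value was −0.13. Ccl25, the CCR9 ligand of gut and thymus, had 4.18, 9.16 and 5.06 against 8.17, 3.98 and 6.11 CPM, and the groups had almost the same mean (6.13 ± 2.66 and 6.09 ± 2.10 CPM, SD, n = 3). Its log2 value of −0.02 (SE 0.40; edgeR adjusted p = 0.988) turned to 0.02 under upper-quartile scaling. Exons of Ccl25 share 204 bases with Elavl1, and those of Ccl27a 8 bases with Il11ra1, both on the opposite strand. Ccl28, which binds CCR10 and CCR3, had 2, 2 and 5 against 3, 6 and 4 counts, and Ccl27b 0, 1 and 2 against 3, 1 and 0. The copy of Ccl27a on scaffold JH584293.1 had 5 counts, all in KO replicate 4, and that on JH584294.1 had none.

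Reads of the CCR7 ligand Ccl21 were assigned almost only to 1 scaffold copy, Ccl21a on JH584294.1. It had counts of 0, 69 and 44 in the WT-labelled and 14, 8 and 9 in the KO-labelled libraries, or 0, 4.42 and 2.14 against 1.27, 0.371 and 0.591 CPM. WT replicates 2 and 3 were high and WT replicate 1 had none (log2 −1.60, SE 1.18; edgeR adjusted p = 0.685). The value was −2.19 without WT replicate 1, with an unadjusted p under 0.05, and −0.61 without WT replicate 2. Ccl21a on chromosome 4 had 1 count, and Ccl21b there had none. Ccl21c had 2 counts on scaffold GL456350.1, both in KO replicate 6, and none on JH584293.1. The scaffold rows of Ccl21b (GL456350.1) and Ccl19 (JH584294.1) had no count. The scaffold copies, which include the row with nearly all reads, were not compared by sequence here. Over 402 coding bases, Ccl21a and Ccl21b transcripts of GENCODE vM21 on chromosome 4 differed at 2 positions (99.5% identity), T84A and C194T, counted from the A of the start codon with the Ccl21a base first. The stretches around both positions are shown because a read of this coding stretch that covers neither cannot be assigned to 1 of this pair, with the differing base in capitals.
Ccl21a at 84: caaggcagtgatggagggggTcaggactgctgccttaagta
Ccl21b at 84: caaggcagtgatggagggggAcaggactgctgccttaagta
Ccl21a at 194: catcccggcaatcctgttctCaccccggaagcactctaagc
Ccl21b at 194: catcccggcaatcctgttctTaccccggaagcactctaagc

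The B cell attractant Cxcl13, which binds CXCR5, had 6, 7 and 3 against 5, 31 and 11 counts. KO replicate 5 held 31 of its 47 KO-labelled counts. The rate ratio was 3.21 (95% interval 1.79 to 6.06, counting error only), and none was taken without KO replicate 5. The groups overlapped in counts. In CPM they were barely apart, at 0.448 in WT replicate 2 and 0.454 in KO replicate 4. Markers of B and plasma cells were fitted lower in 5 of 5 tested of 6, with a median of −0.81 and summed levels of 6.23 to 14.4 against 6.11 to 8.08 CPM. They were led by Jchain at −0.94 and Cd79a at −1.12. Neither passed in edgeR or DESeq2, and quality weights called both. The receptor Ccr7, for the Ccl19 and Ccl21 ligands, had 0.686, 1.15 and 1.02 against 0.999, 0.139 and 0.131 CPM (log2 −1.30, SE 0.81; edgeR adjusted p = 0.664), with −2.75 without KO replicate 4 and −0.81 without KO replicate 5. The part of these cells in the Ccl21a values was not tested.

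Among the remaining ligands, Ccl24, an eotaxin that attracts eosinophils through CCR3, had 0.499, 1.73 and 0.924 against 2.18, 1.48 and 1.38 CPM. WT replicate 2 lay within the KO-labelled range (log2 0.67, SE 0.53; edgeR adjusted p = 0.699). Ccl11, another eotaxin, had 5 counts in WT replicate 2, 1 in KO replicate 4 and 7 in KO replicate 5, and none elsewhere. Cxcl14, an epithelial chemokine whose signalling receptor is debated, had 0.997, 0.576 and 0.535 against 0.454, 1.07 and 0.722 CPM (log2 0.13, SE 0.53; edgeR adjusted p = 0.943), and overlapped throughout. The CCR4 ligands Ccl17 and Ccl22, products of dendritic cells and macrophages, had 0, 0 and 2 against 1, 3 and 6 counts and 2, 2 and 7 against 4, 10 and 3 counts. The rate ratio of Ccl17 was 5.46 (95% interval 1.164 to 51.2, counting error only). Xcl1, an NK and T cell product that attracts cross-presenting dendritic cells, had 0, 2 and 5 against 3, 0 and 5 counts. Cxcl17 had 3 counts in all, and Ccl20, the CCR6 ligand, 1.

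An edgeR fit without a count filter had a median log2 fold change of −0.009 over its 24643 genes, and their share fitted higher was not taken. Of the 18 ligands below the test it put 15 higher and 3 lower, with no such share to set beside them. None passed the adjusted threshold. Many of these fitted values rest on 0 to 2 reads in a group, and KO replicate 4, the shallowest library, had the most ligand rows with a read (30, against 19 to 28 in the others). Rate ratios are given above only for the untested ligands whose interval excluded 1. Of the tested ligands, WT replicate 3 had the highest value for 5 (Cxcl12, Cxcl1, Ccl9, Cxcl9 and Cxcl10) and KO replicate 4 for another 5, whereas WT replicate 1 had the lowest for 5.

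Genes of 1 genomic cluster were not fitted in 1 direction throughout. Ccl5, Ccl9, Ccl6, Ccl3 and Ccl4 lie within 139 kb of chromosome 11 (83525778 to 83664683), where 2 of the 3 tested were fitted higher and Ccl9 lower. The cluster of Ccl2, Ccl7, Ccl11, Ccl12, Ccl8 and Ccl1, 270.0 kb of the same chromosome (82035571 to 82305690), had Ccl2 alone above the filter. The CXCR2 ligand cluster of 147 kb on chromosome 5 (90759360 to 90905938) had Cxcl1 and Cxcl2 tested, both fitted lower, while Cxcl3 and Cxcl15 between Cxcl5 and Cxcl1 had no read. Cxcl9 and Cxcl10 lie within 27.5 kb of the same chromosome (92321347 to 92348889) and were fitted at −0.42 and 0.04.

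The platelet chemokines are CXC ligands named outside the Cxcl series. Pf4, platelet factor 4, had 0.561, 0.704 and 0.875 CPM in the WT-labelled and 1.82, 2.08 and 2.17 CPM in the KO-labelled libraries. All KO-labelled values were higher (log2 1.49, SE 0.40; edgeR adjusted p = 0.40), which holds for 8.12% of all genes. Ppbp, the other platelet product, had 9, 23 and 11 against 9, 4 and 6 counts and was not tested. Markers of platelets and megakaryocytes overlapped between groups, at summed levels of 3.60 to 6.15 and 3.98 to 7.54 CPM. Gp1bb was at 0, and the 1 marker tested of 6, Itga2b, was at 0.37.

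Receptors were fitted higher more often than ligands, though the difference between the lists was not tested. Of 17 signalling receptors 6 were tested and of 6 atypical receptors all 6. Together 9 of 12 were fitted higher (75%, against 49.1% of all genes), and 3 had an unadjusted p under 0.05 (25%, against 8.58%). In 5 every KO-labelled library lay above every WT-labelled one (41.7%, against 8.12%), and 0 passed the adjusted threshold in edgeR or DESeq2. Quality weights, which called 29.7% of all genes, called Cx3cr1, Cxcr5 and Ackr2 higher and Ccr7 lower. Ackr2, which takes up inflammatory CC chemokines, Ccl2 included, had 1.12, 1.35 and 1.46 against 2.63, 3.15 and 4.86 CPM (log2 1.43, SE 0.38; edgeR adjusted p = 0.40). Its groups were apart, with the highest value in KO replicate 6. Ackr3, which takes up Cxcl12, had 0.249, 0.576 and 0.535 against 0.636, 4.12 and 0.657 CPM. Only KO replicate 5, the KO-labelled library with the most Cxcl12, was far above the WT-labelled values (log2 2.01, SE 0.84; edgeR adjusted p = 0.569). Without that library, the one with the fat cell transcripts, the value was 0.50, and the part of those transcripts was not tested. Ackr3 reached the level required for the test in every KO-labelled library, but among the WT-labelled ones only in replicate 2. Its place in the receptor counts above therefore supports nothing about the receptors. Ccr7, fitted lower, reached that level in every WT-labelled library and in KO replicate 4 only.

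Ackr4, which takes up Ccl19, Ccl21 and Ccl25, had 1.31, 1.47 and 1.75 against 2.82, 2.96 and 1.77 CPM (log2 0.73; edgeR adjusted p = 0.632). Gpr182, an endothelial chemokine scavenger and the most read of these receptors, had 16.5, 12.7 and 15.9 against 18.98, 18.99 and 20.2 CPM (log2 0.37, SE 0.20; edgeR adjusted p = 0.638). In both genes the KO-labelled libraries lay above all WT-labelled ones, by a narrow margin in Ackr4. The other atypical receptors, Ackr1 and Ccrl2, were at 0.06 and −0.09. Among signalling receptors, Cx3cr1 of resident macrophages and monocytes had 0.686, 1.54 and 0.973 against 3.63, 1.62 and 2.23 CPM (log2 1.21, SE 0.49; edgeR adjusted p = 0.546). Ccr2, the receptor for Ccl2, had 0.686, 3.14 and 1.36 against 2.91, 2.50 and 2.10 CPM, so the groups overlapped (log2 0.53; edgeR adjusted p = 0.752). Cxcr4, the receptor for Cxcl12, was at 0.03, Cxcr5 at 0.87 and Xcr1 at −0.40. Ccr1, a receptor for Ccl9 and Ccl6, had 5, 3 and 1 against 4, 4 and 5 counts, Cxcr3 had 5, 11 and 3 against 1, 6 and 5, and Ccr4 and Ccr8 had none.

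**Figure D4:**
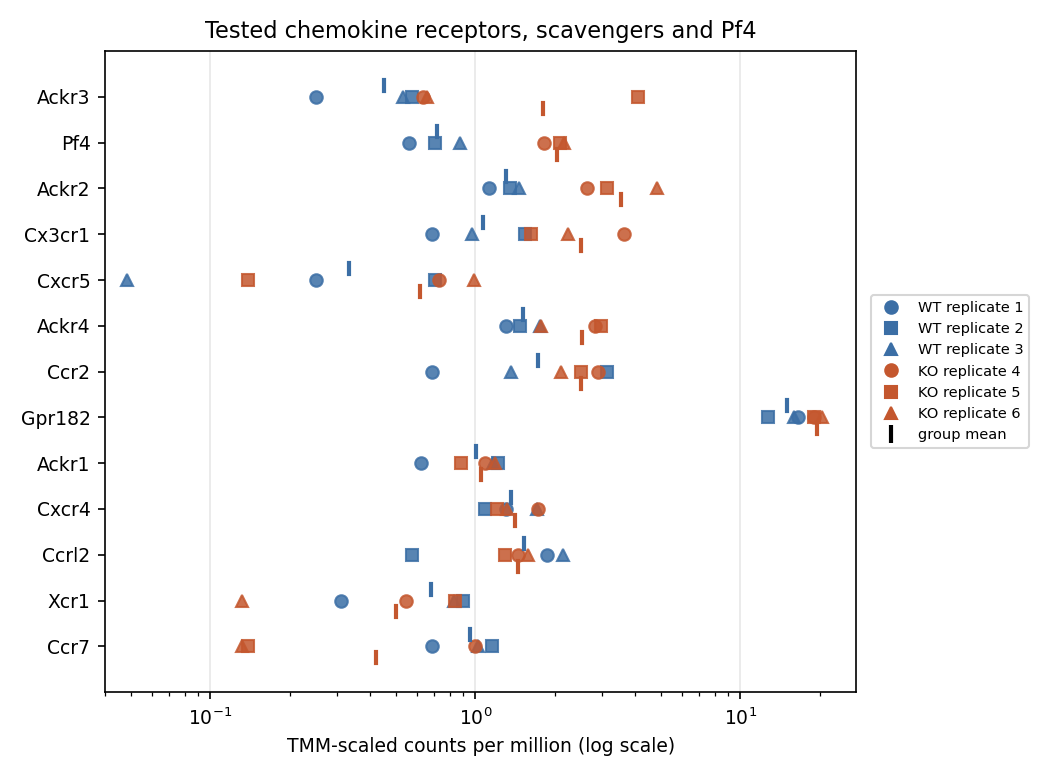
TMM-scaled CPM of the 12 tested chemokine receptors and of Pf4 on a log axis, 1 symbol per library (WT-labelled blue, KO-labelled orange) with short bars for the group means. Orange symbols lie to the right of all blue ones in Pf4, Ackr2, Ackr3, Ackr4, Gpr182 and Cx3cr1, the last by 1.62 against 1.54 CPM.

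Other steps of the pathway had no gene past the adjusted threshold in edgeR, DESeq2 or limma-voom. With quality weights, where 29.7% of all genes were called, Arrb1, Rac2, Nfkb2, Relb and Mmp14 of the genes named here passed. Of 15 genes that carry the receptor signal, 12 were fitted higher (median 0.39), led by Arrb1, the arrestin that receptors recruit, at 0.91 (SE 0.26; edgeR adjusted p = 0.402) and Rac2, a leukocyte GTPase of cell movement, at 0.91 (SE 0.28; edgeR adjusted p = 0.437). Of 22 inducers and NF-kB genes, 16 were tested and 10 fitted higher (median 0.15). Those with the smallest p were the non-canonical NF-kB subunits Nfkb2 at 0.91 (SE 0.27; edgeR adjusted p = 0.410) and Relb at 0.99 (SE 0.41; edgeR adjusted p = 0.571). Tnf had 2, 2 and 3 against 7, 4 and 6 counts, and Ifng, Il13 and Il17a had none. Of 8 proteases that shed or cleave chemokines, 5 were tested and 3 fitted higher (median 0.03), with Mmp2 at 1.58 and Mmp14 at 1.20. Mmp2 had 21, 24 and 25 against 37, 157 and 22 counts, and was at 0.82 without KO replicate 5. Of 11 heparan sulfate proteoglycans and related anchors, 10 were tested and 4 fitted higher (median −0.17), with Sdc3 at 0.56 and Hspg2, perlecan, at 0.65.

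The remaining cell markers are given for comparison, and none passed the adjusted threshold in edgeR. Of the genes named in this paragraph DESeq2 called none, and quality weights called Batf3, Sox9, Msln, Hba-a1, Cps1, Cdh5, Cd68, Cd4 and Csf3r. Dendritic cell markers were fitted higher in 6 of 6 tested of 8 (median 0.70, led by Batf3 at 1.49 and Clec10a at 1.06), with summed levels that overlapped, 6.23 to 26.1 and 12.9 to 24.4 CPM. Cholangiocyte markers were fitted higher in 4 of 5 tested of 6 (median 0.21; Krt19 at 0.69, Sox9 at −0.66) and mesothelial markers in 2 of 3 tested of 5 (median 0.65; Msln at 2.26, Upk3b at 0.65). Of 5 adipocyte markers only Cfd was tested, at 0.84, the other 4 being nearly confined to KO replicate 5, and of 5 erythroid markers 4 were, 2 in each direction (Hba-a1 at 0.90, Hbb-bs at −0.62). Hepatocyte markers were fitted lower in 7 of 8 (median −0.24), with Cps1 at −1.70 and Apoa1 at −0.50. Endothelial markers had a median of 0.44, with Cdh5 at 0.67 and Pecam1 at 0.94, and stellate markers one of 1.29. Cd68, of the macrophage list, was at 0.71, and Cd4 and Cd3g, of the T and NK cell list, at −2.21 and 0.55. Of the tested neutrophil markers, S100a8 and S100a9 were at −1.25 and −0.90, whereas Csf3r was at 0.50. The part of any of these cell types in the ligand values was not tested.

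**Figure D5:**
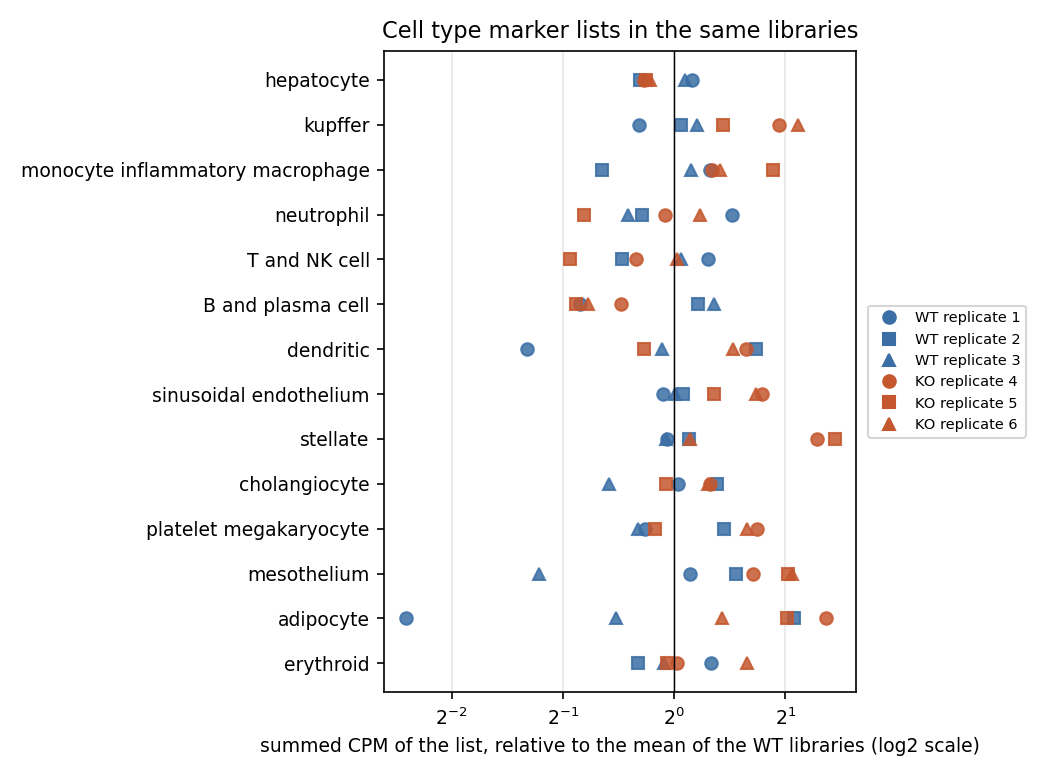
Summed CPM of each cell marker list in each library, divided by the mean of the 3 WT-labelled libraries, on a log2 axis (WT-labelled blue, KO-labelled orange). Kupffer cell, monocyte and inflammatory macrophage, sinusoidal endothelial, stellate and mesothelial lists have all orange symbols to the right of the blue ones, by a narrow margin in the stellate and monocyte lists, and the neutrophil, T and NK cell and B cell lists overlap.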

How the data were processed

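Whole read counts per gene come from the table the authors deposited, which also gives gene names, positions and types. A second deposited table gives FPKM, values the authors scaled by gene length and library size; it served to compare levels between genes and as an alternative. The tools listed in the submitters' processing notes are featureCounts 1.5.0-p3, HISAT2 2.0.5 and DESeq2 1.16.1, with the build mm10 and no roles; strand and multi-mapping settings are not given in the sources used here. Per the labels' protocols, RNA came from frozen liver and an Illumina TruSeq kit was used.

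The main test was the quasi-likelihood test of edgeR 4.0.16 (R 4.3.3) on genes kept by filterByExpr (minimum count 10, total 15; 13693 genes), with TMM scaling and Benjamini-Hochberg adjustment over all genes at 0.05. Alternatives were DESeq2 1.42.0, limma-voom (limma 3.58.1) without and with quality weights, other scalings and filters, FPKM in limma with pseudocounts of 1 and 0.1, and each library left out. The tests were checked on simulated counts. No 2 libraries agreed within sampling noise (lowest chi-square per degree of freedom 45.6). Rate ratios carry exact 95% intervals and are given only for the untested ligands whose interval excluded 1. All of those were higher in the KO-labelled libraries. The intervals cover counting error only, and the share over all untested genes was not taken. Their shared direction is therefore no result about the ligands. The intervals of the other untested ligands with reads in both groups included 1, among them Ccl4 at 1.56 (0.749 to 3.34) and Ccl22 at 1.69 (0.746 to 3.99).

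Members and lists were chosen with earlier results of these data known. Every ligand row is accounted for; of each other list the called genes, or else the 2 tested genes with the smallest p, were named, and of the receptors every tested one, except 1 receptor gene that is not reported here and is in none of the receptor counts. Trem2 was named to check the labels. Other genes given with values (Ppbp, Tnf, Ifng, Il13, Il17a, Ly6g, Mpo, Csf3r, Ly6c2, Chil3, Lrat, Dcn, Des, Clec4f, fat cell markers, Gp1bb, untested receptors, Cxcl11 and Ccl19-ps3) were chosen after their values were seen. Ccl21 transcripts come from GENCODE vM21.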

Additional observations from a re-analysis of the deposited data

How the results depend on the processing

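The number of genes called over the whole table depended most on the processing: against 2, library size alone gave 1, limma-voom 1, DESeq2 176, no count filter 61, limma-voom with quality weights 4063, the unadjusted threshold 1175, and leaving out 1 library 0 to 1. Leaving out WT replicate 1 and KO replicate 4 together, chosen after seeing the data, gave 0. Against 0 ligands called, DESeq2 gave 1, quality weights 5 (Cxcl12, Ccl9, Cxcl1, Ccl27a and Ccl2, where 29.7% of all genes were called), the unadjusted threshold 3, and leaving out 1 library 0. Against 0 receptors, quality weights gave 4, the unadjusted threshold 3, and leaving out 1 library 0. The ligand median of 0.09 was 0.31 with quality weights, 0.51 without a filter and 0.07 to 0.18 with 1 library left out. Over all genes the median was 0.002 with quality weights and −0.009 without a filter. The 9 ligands fitted higher became 24 of 34 without a filter, where the share over all genes was not taken, and 8 to 9 with 1 library left out. Trem2 was −1.53 with quality weights (limma adjusted p = 0.0445). Ligands with an unadjusted p under 0.05 numbered 2 (without WT replicate 3) to 4 (without WT replicate 2).

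Of the 16 tested ligands, 5 changed sign under some alternative. With quality weights Cxcl10 was −0.32, Ccl25 0.27 and Cxcl2 0.59, and upper-quartile scaling gave Ccl25 0.023. Without both WT replicate 1 and KO replicate 4, Ccl27a was −0.13, Cxcl2 0.09, Ackr1 −0.21, Ccrl2 0.06, Cxcr4 −0.16, Cxcl11 −0.47, S100a9 0.69, Upk3b 1.73, Hbb-bs 0.020 and Cfd −0.0039. Leaving out 1 library gave −0.28 to 0.38 for Ccl25 and −0.23 to 0.46 for Cxcl14. Over all alternatives Ccl25 went down to −0.49 and Cxcl14 up to 0.69. Leaving out 1 library, or WT replicate 1 and KO replicate 4 together, gave further ranges. These were −0.23 to 0.40 for Cxcl10, −0.48 to 0.19 for Cxcl2 and −0.13 to 0.99 for Ccl27a. For receptors they were −0.49 to 0.21 for Ccrl2, −0.16 to 0.21 for Cxcr4, −0.21 to 0.20 for Ackr1 and −1.06 to 0.044 for Xcr1. For other genes they were −1.32 to 0.69 for S100a9, −0.57 to 1.73 for Upk3b, −0.0039 to 2.02 for Cfd, −0.89 to 0.020 for Hbb-bs and −0.47 to 2.42 for Cxcl11. Ccrl2 was 0.054 in limma-voom and 0.034 with FPKM plus 0.1, Cxcr4 was −0.0018 in limma-voom and −0.23 with quality weights, and S100a9 was 0.45 with quality weights. Without a change of sign, leaving out 1 library gave 0.34 to 1.20 for Ccl24, 0.39 to 0.88 for Ccl5, 0.16 to 1.12 for Ccl6, 0.16 to 1.26 for Ccr2, 0.29 to 2.01 for Cxcr5, −1.70 to −0.82 for Cd79a and −1.17 to −0.45 for Jchain. The cause of these changes was not tested. No paired analysis was possible because the replicate numbers run from 1 to 6 and no number is shared between the groups. Depth limits the 18 ligands below the test and Ccl2, which rests on 3 to 29 reads a library.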
